A study of Mus musculus with 4 samples.

Results

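The 10 genes described here code for NF-kB subunits and for proteins grouped here as NF-kB inhibitors, and they are 10 of 30360 genes counted. They were taken by symbol as 4 subunits, namely the classical Nfkb1 and Rela and the alternative Nfkb2 and Relb, and 6 inhibitors, namely Nfkbia, Nfkbie, Nfkbiz, Tnfaip3, Tnip1 and Birc3. The word inhibitor is a group label here, and the action of each protein, Birc3 and Nfkbiz included, was not measured. Unique molecular identifiers (UMIs) were counted in single cells of mouse distal colonic organoids from wildtype or Tnfr2-/- mice. Tnfr2-/- mice lack TNF receptor 2 in all cells of the body through a Tnfrsf1b tm1Mwm allele. The mice of all groups were 16 weeks old per the labels, while the study's methods give a younger age for the donors of organoids. Treated cultures were kept in 20 ng/ml of the cytokine TNF between days 1 and 6 following passage 5, and all cultures were harvested on day 7 with apoptotic cells depleted. Untreated cultures are also labelled as vehicle. The labels do not say how many mice a culture came from. There was 1 library per group, so no difference between groups could be tested, and all differences below describe these 4 libraries.

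NF-kB subunits are held in the cytoplasm until a signal frees them. In the classical arm the IKK complex, with its kinase Ikbkb and its scaffold Ikbkg, destroys the inhibitor coded by Nfkbia and frees dimers of the Rela and Nfkb1 products. In the alternative arm the kinase coded by Map3k14, which Traf3 and Birc2 keep low, acts through Chuk to process the Nfkb2 product, which then pairs with the Relb product. TNF receptor 1 is known for strong classical signalling, and TNF receptor 2 for signalling in both arms, including the alternative one. Several inhibitors are themselves NF-kB targets, which makes them feedback regulators.

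On build GRCm38 the classical subunit genes lie as Nfkb1 (ENSMUSG00000028163) at chr3:135584655-135691547 and Rela (ENSMUSG00000024927) at chr19:5637483-5648130, and the alternative ones as Nfkb2 (ENSMUSG00000025225) at chr19:46304320-46312385 and Relb (ENSMUSG00000002983) at chr7:19606217-19629438. The inhibitor genes of the IkB family are Nfkbia (ENSMUSG00000021025) at chr12:55489410-55492647, Nfkbie (ENSMUSG00000023947) at chr17:45555703-45563169 and Nfkbiz (ENSMUSG00000035356) at chr16:55811375-55838899. The other inhibitors are Tnfaip3 (ENSMUSG00000019850) at chr10:19000910-19015657, Tnip1 (ENSMUSG00000020400) at chr11:54910785-54962917 and Birc3 (ENSMUSG00000032000) at chr9:7848699-7873186.

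Where 4 values follow one another, they are in the order of wildtype without and with TNF, then Tnfr2-/- without and with TNF. The libraries held 2589, 1469, 1117 and 980 cells. Levels are in CPM, a gene's UMIs in all cells of 1 class or compartment of 1 library per 1000000 UMIs of those cells, with exact Poisson 95% intervals that cover counting error only. Differences are in log2(CPM + 1), on which 1 is 2-fold and which understates the change of low genes. The epithelium is the sum of 7 deposited classes and held 1128, 1163, 1023 and 858 cells. The mesenchyme is the sum of 4 classes and held 1430, 306, 90 and 122 cells. The summed CPM of 4 epithelial markers (Krt8, Krt18, Epcam and Cdh1) was 7337 to 9120 in the epithelium and 98.3 to 536 in the mesenchyme, and that of 5 mesenchymal markers 3.87 to 15.8 and 5090 to 9002. The 5 immune markers summed to at most 16.8 CPM in either compartment, with Ptprc, Cd3e and Itgam at 0 in every library of the mesenchyme and Ptprc at 0 to 0.0725 CPM in the epithelium. The knocked-out gene Tnfrsf1b was at 4.17, 12.1, 1.82 and 6.89 CPM in the epithelium. Within Progenitor.1 it was at 4.99, 12.05, 0.980 and 2.15 CPM, and within Progenitor.2 at 1.19 (2 UMIs), 14.7, 5.15 and 7.65 CPM. In Mesenchyme-Ptges the untreated libraries were at 17.5 CPM in wildtype (6 UMIs) and 16.8 in Tnfr2-/- cells (14 UMIs), with overlapping intervals. It was thus lower in Tnfr2-/- cells in both treatments in the epithelial sum and Progenitor.1 but not absent, and it was not lower in untreated Progenitor.2 cells. A 3' count may lie outside the disrupted part, so this checks the genotype labels only in part.

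The makeup of the compartments differed between libraries, which matters for every compartment sum. Progenitor.2 cells were 5.50%, 23.5%, 22.8% and 83.4% of the epithelium, and Progenitor.1 cells 48.4%, 28.8%, 63.2% and 11.1%. Absorptive cells were 28.3% of the wildtype untreated epithelium and at most 1.63% of the others. In the mesenchyme the class Mesenchyme-Ptges was 2.38%, 99.3%, 41.1% and 100%. The class Secretory-Reg4-Ang4 occurred in the wildtype TNF library alone, as 246 cells with a median of 1957.5 UMIs. Therefore each result is given for the sums and then within classes.

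The starts of genes that NF-kB binds often hold the kB motif, so the 250 bases before the RefSeq start of each member were searched on both strands for the kB consensus motif of 10 bases (build GRCm38.p6). Promoter sequences matched 7 of the 10 members: Rela, Nfkb2, Nfkbia, Nfkbie, Tnfaip3, Tnip1 and Birc3. At least 1 match stood before a start of 5 of these 7 genes, against 4.46% of all 27025 genes and 3.90% of all 32851 starts in the same table. The first 5 stretches below are shown because they hold a match and belong to members that were at least 2-fold higher with TNF in a comparison below, and that of Birc3 as one of the same kind without a match. Motif matches are in capitals. They are on the gene's strand, and bases in an annotated untranslated region were left out except for 1 site of 30 bases in Nfkb2.
Nfkbia, chr12:55492648-55492897, minus strand: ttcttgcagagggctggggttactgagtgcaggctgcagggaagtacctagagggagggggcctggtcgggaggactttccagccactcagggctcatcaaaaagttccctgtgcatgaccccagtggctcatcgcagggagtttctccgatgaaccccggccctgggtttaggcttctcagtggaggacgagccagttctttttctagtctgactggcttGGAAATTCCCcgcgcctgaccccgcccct
Tnfaip3, chr10:19015411-19015547, minus strand: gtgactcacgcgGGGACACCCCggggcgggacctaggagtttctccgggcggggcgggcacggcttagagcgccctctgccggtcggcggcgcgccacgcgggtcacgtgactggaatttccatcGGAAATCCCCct
Tnip1, chr11:54962941-54963190, minus strand: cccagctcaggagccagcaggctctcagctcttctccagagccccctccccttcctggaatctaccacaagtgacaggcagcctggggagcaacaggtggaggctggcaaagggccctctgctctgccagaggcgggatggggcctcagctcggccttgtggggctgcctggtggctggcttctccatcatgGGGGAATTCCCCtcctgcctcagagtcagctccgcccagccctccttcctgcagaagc
Nfkb2, chr19:46304692-46304721, plus strand: cgtcacGGGAATTCCCCccctcggggggcc
Nfkbie, chr17:45555450-45555699, plus strand: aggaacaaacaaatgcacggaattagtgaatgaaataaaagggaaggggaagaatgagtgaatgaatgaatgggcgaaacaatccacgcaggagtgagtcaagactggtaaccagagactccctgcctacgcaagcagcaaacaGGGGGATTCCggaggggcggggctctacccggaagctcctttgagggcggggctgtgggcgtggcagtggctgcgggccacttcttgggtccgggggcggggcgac
Birc3, chr9:7873187-7873420, minus strand: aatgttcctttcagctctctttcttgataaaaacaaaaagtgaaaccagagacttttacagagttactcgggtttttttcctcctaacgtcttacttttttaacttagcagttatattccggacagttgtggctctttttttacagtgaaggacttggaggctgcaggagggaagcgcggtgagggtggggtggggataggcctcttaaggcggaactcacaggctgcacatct
The Nfkbia match began 29 bases before the start, the Tnfaip3 matches 125 and 12, the Tnip1 match 58, the Nfkb2 matches 39 and 11, and the Nfkbie match 106 bases before it. The windows of Rela and Birc3 held none. A match is a description of these letters and not a measured binding site.

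In the epithelium the 9 members that reached 20 CPM were higher with TNF in both genotypes, where 54.4% of all tested genes were in wildtype and 41.9% in Tnfr2-/- cells. Nfkb2, Nfkbiz and Birc3 in wildtype, and Birc3 in Tnfr2-/- cells, reached 20 CPM only with TNF, so the minimum fixed their direction. For Nfkbiz the Tnfr2-/- difference turned to -0.05 when the main progenitor classes were weighted equally. The remaining member, Nfkbie, was near background, and its Tnfr2-/- intervals overlapped. The members' median difference was 1.04 in wildtype and 0.72 in Tnfr2-/- cells, against 0.04 and -0.12 over all genes that reached 20 CPM in at least 1 library of the pair. In wildtype, 5 of the 9 members that reached this minimum were at least 2-fold higher with TNF, namely Nfkb2, Relb, Tnfaip3, Tnip1 and Birc3, where 2.54% of all tested genes were. Of these, Nfkb2 and Birc3 reached the minimum only with TNF. In Tnfr2-/- cells 2 of 9 were, Tnfaip3 and Tnip1, where 5.55% of genes were. Both genes were at least 2-fold higher in both genotypes (2 of 9 members, 0.920% of genes). Nfkbie missed the minimum throughout the epithelium.

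**Figure D1:**
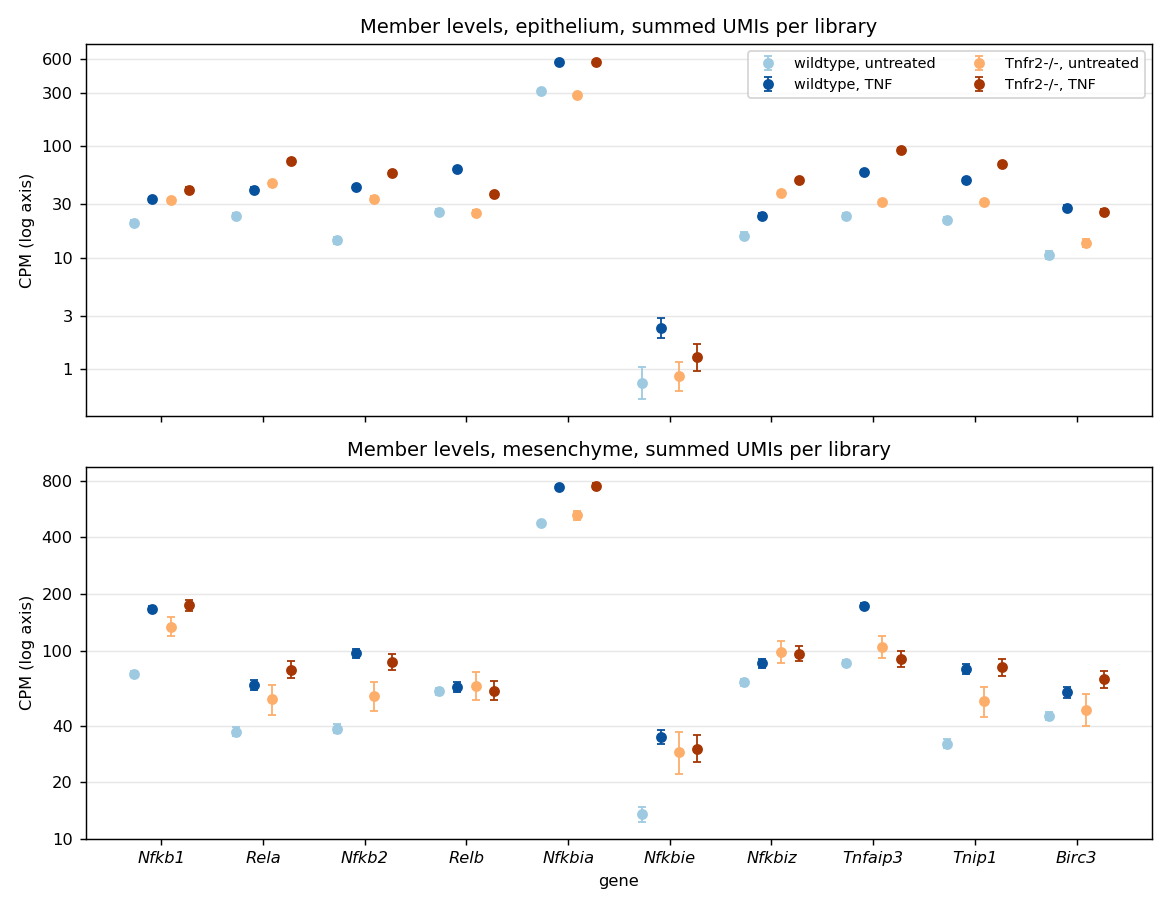
Levels of the 10 members in CPM on a log axis, per gene (x axis) and library (colour), in the summed epithelium (top) and mesenchyme (bottom). Bars are exact Poisson 95% intervals, which cover counting error only; the TNF points lie above the untreated points of the same genotype for all members in the epithelium.

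Among the alternative subunits, Nfkb2, which codes for the p100 precursor, was at 14.3, 43.1, 33.7 and 58.0 CPM in the epithelium. Its interval was 13.3 to 15.4 in the wildtype untreated library, which lay below the other 3. Relb was at 25.9, 62.8, 25.1 and 36.9 CPM. The wildtype TNF library stood alone for Relb, at 60.4 to 65.3, and the untreated libraries had overlapping intervals. The TNF differences were 1.53 and 0.77 for Nfkb2 and 1.25 and 0.54 for Relb in wildtype and Tnfr2-/- epithelium.

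In wildtype epithelium the classical subunits differed less with TNF. Nfkb1, which codes for the p105 precursor, was at 20.6, 33.4, 32.7 and 40.7 CPM, and Rela, which codes for the transactivating subunit p65, at 23.7, 40.6, 46.2 and 74.0 CPM. For both genes the untreated Tnfr2-/- library was about level with or above the wildtype TNF library. The TNF differences were 0.67 and 0.31 for Nfkb1 and 0.75 and 0.67 for Rela.

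The mean TNF difference of the alternative subunits minus that of the classical subunits was 0.67 in wildtype epithelium (counting interval 0.56 to 0.79) and 0.17 in Tnfr2-/- epithelium (0.07 to 0.26). Within Progenitor.1 the same values were 1.01 (0.84 to 1.17) and 0.53 (0.31 to 0.74), so there the alternative subunits differed more with TNF in both genotypes. Within Progenitor.2 they were 0.26 (-0.12 to 0.64) and -0.11 (-0.25 to 0.04), and both intervals held 0. The wildtype value was 1.13 (0.70 to 1.56) in Secretory-Reg4-Spdef-Lyz1 cells and 1.46 (0.63 to 2.29) in Progenitor.3 cells. In Progenitor.3 Nfkb1 was under 20 CPM in both wildtype libraries, and Nfkb2 was at 5.45 CPM in the untreated one. In wildtype enteroendocrine cells the value was 1.27 (-0.40 to 2.93), an interval that held 0. In the mesenchymal sum the order was the other way round, at -0.28 (-0.39 to -0.17) in wildtype and -0.19 (-0.46 to 0.08) in Tnfr2-/- cells. Within Mesenchyme-Ptges the values were 0.62 (-0.04 to 1.29) and 0.07 (-0.33 to 0.47). Both of these intervals held 0, so the reversed order of the sum was not found within that class.

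Of the inhibitors, Nfkbia, which codes for IkB alpha, was at 313, 567, 290 and 575 CPM in the epithelium. Both TNF libraries lay above both untreated libraries, with differences of 0.86 and 0.99. Tnfaip3, which codes for the ubiquitin-editing enzyme A20, was at 23.6, 58.9, 31.3 and 93.0 CPM. The 4 intervals did not overlap, and the TNF differences were 1.28 and 1.54. Tnip1, which codes for a partner of A20, was at 21.7, 49.3, 31.2 and 68.8 CPM, with differences of 1.15 and 1.11. For Nfkbia and Tnfaip3 the pooled TNF difference was larger in Tnfr2-/- than in wildtype epithelium, which held for no other member.

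Birc3, which codes for the ubiquitin ligase cIAP2, was at 10.6, 28.1, 13.5 and 25.6 CPM, with TNF differences of 1.34 and 0.87. Nfkbiz, which codes for the nuclear protein IkB zeta, was at 15.8, 23.7, 38.0 and 50.0 CPM, and both Tnfr2-/- libraries lay above both wildtype libraries. Nfkbie, which codes for IkB epsilon, was at 0.755, 2.35, 0.869 and 1.28 CPM, which rests on 38, 97, 44 and 51 UMIs. At this depth only its wildtype TNF interval, 1.90 to 2.86, stood apart from all the others.

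The members' TNF differences were also taken within the 2 main progenitor classes. In Progenitor.1 the wildtype pair had 6 of 9 members at least 2-fold higher with TNF (1.84% of genes) and the Tnfr2-/- pair 0 of 8 (1.08% of genes). Of those 6 members, 5 (Nfkb2, Relb, Tnfaip3, Tnip1 and Birc3) reached 20 CPM only with TNF, so they could pass only by being higher there, and Birc3 was not tested in the Tnfr2-/- pair. Of the 8 members tested in both pairs 5 were at least 2-fold higher in wildtype and 0 in Tnfr2-/- cells. In Progenitor.2 the counts were 3 of 9 (4.28%) and 0 of 9 (0.844%). No p-value can be given for these counts, since each pair is 2 libraries. The difference was larger in wildtype for 10 of 10 members in Progenitor.1 and 10 of 10 in Progenitor.2. Of the members that passed the minimum in both pairs these were 8 of 8 and 9 of 9, where 64.6% and 61.7% of all such genes had the larger difference in wildtype. In the epithelial sum it was 7 of 9 such members against 66.3% of genes, so there the members' share was near that of all genes. Nfkb2, Relb, Tnfaip3, Tnip1 and Nfkbiz in wildtype Progenitor.1, and Birc3 in wildtype Progenitor.2, reached 20 CPM only with TNF. For these members the minimum favoured a larger difference in wildtype.

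The median member differed with TNF by 1.16 in wildtype and 0.57 in Tnfr2-/- Progenitor.1 cells, and by 0.65 and 0.14 in Progenitor.2 cells. Over all genes tested in both pairs these medians were 0.04 and -0.04, and 0.00179 and -0.10. Progenitor.2 had few wildtype untreated cells (62, with a median of 15574.5 UMIs, against 233 to 716 cells at 33685 to 39167 in the other libraries), and Progenitor.1 few Tnfr2-/- TNF cells (95).

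**Figure D2:**
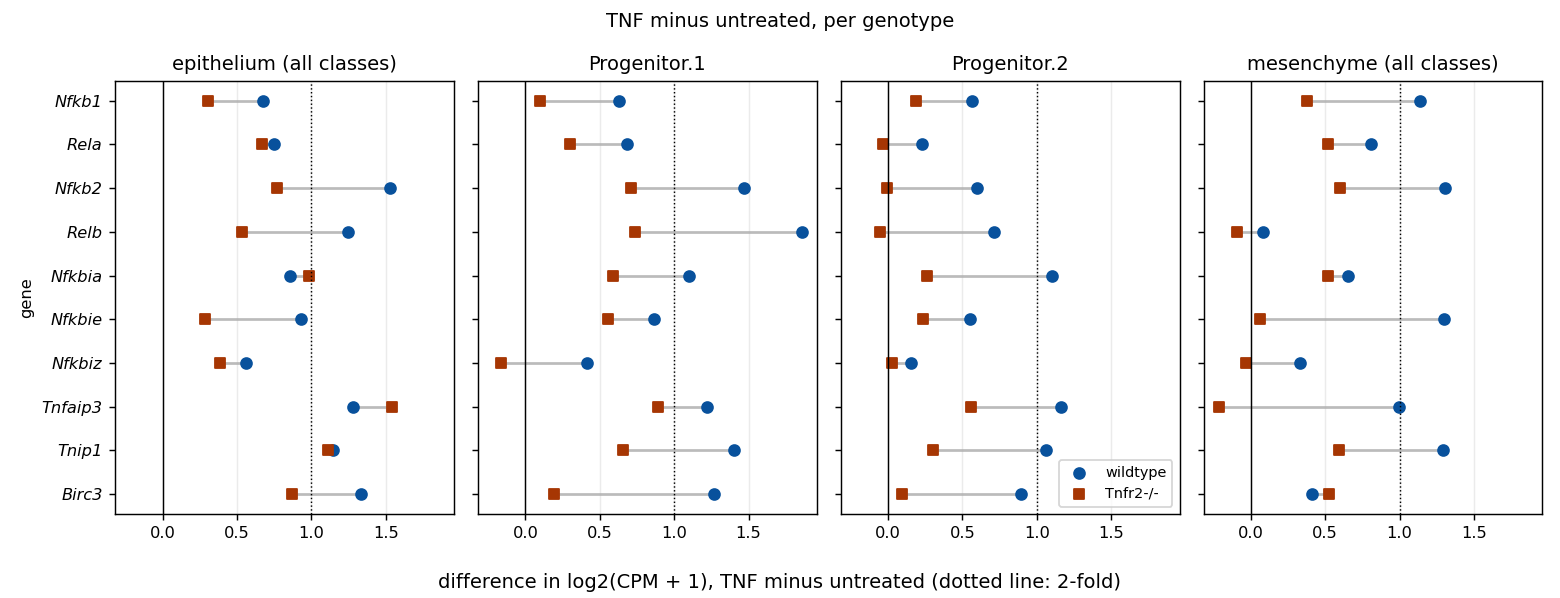
Difference in log2(CPM + 1) between TNF and untreated libraries (x axis) for each member in wildtype (blue circles) and Tnfr2-/- cells (brown squares), in the epithelial sum, 2 progenitor classes and the mesenchymal sum. The circles lie to the right of the squares for 10 of 10 members in both progenitor classes, and the dotted line marks 2-fold.

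In Progenitor.1 Relb was at 15.3, 58.0, 22.5 and 38.0 CPM, and in Progenitor.2 at 48.2, 79.6, 38.3 and 36.9 CPM. In Tnfr2-/- Progenitor.2 cells the TNF and untreated intervals overlapped, at 34.9 to 39.0 and 34.6 to 42.4. Nfkb2 was at 12.7, 37.1, 27.3 and 45.4 CPM in Progenitor.1 and at 38.7, 59.1, 60.9 and 60.7 CPM in Progenitor.2. Here too the Tnfr2-/- libraries of Progenitor.2 overlapped, and only the wildtype untreated one lay lower.

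The classical subunits differed less with TNF than the alternative ones in wildtype Progenitor.1 cells. In wildtype Progenitor.2 cells the counting interval of that comparison held 0. Nfkb1 was at 21.5, 33.7, 32.6 and 34.9 CPM in Progenitor.1 and at 23.2, 34.8, 36.2 and 41.4 CPM in Progenitor.2. Rela was at 24.2, 39.5, 38.5 and 47.6 CPM and at 44.7, 52.4, 81.1 and 79.4 CPM. For Nfkb1 the wildtype untreated library was the low one in both classes, and the other 3 lay between 32.6 and 41.4 CPM.

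Nfkbia was at 239, 512, 243 and 365 CPM in Progenitor.1 and at 339, 730, 511 and 614 CPM in Progenitor.2, so the wildtype TNF library was the highest of 4 in both classes. Tnfaip3 was at 18.6, 44.7, 23.1 and 43.7 CPM in Progenitor.1 and at 42.3, 96.0, 68.9 and 102 CPM in Progenitor.2. Both TNF libraries lay above both untreated ones, and the TNF difference of Tnfaip3, at 0.89 and 0.56 in Tnfr2-/- cells, was the highest of the 10 members there in both classes. Birc3 was at 8.18, 21.1, 10.5 and 12.1 CPM in Progenitor.1 and at 17.9, 33.98, 26.0 and 27.8 CPM in Progenitor.2. Its Tnfr2-/- intervals overlapped between treatments in both classes.

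Tnip1 was at 14.9, 41.0, 24.5 and 39.2 CPM in Progenitor.1 and at 35.1, 74.3, 59.6 and 73.8 CPM in Progenitor.2. In both classes the TNF libraries had overlapping intervals and lay above the untreated libraries of their genotype. Nfkbiz was at 17.8, 24.2, 36.2 and 32.2 CPM and at 26.8, 29.9, 52.2 and 53.1 CPM. It followed the genotype and not the treatment in Progenitor.2, where the treatments overlapped within each genotype.

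Progenitor.2 was the higher of the progenitor classes for 8 of 10 members in 4 of 4 libraries, with Relb higher in 3 and Nfkbie in 2. Of the 9 members that reached 20 CPM in any of these sums 8 were so, where 34.6% of genes were. The difference was 1.08 to 1.54 for Tnfaip3 and 0.84 to 1.25 for Tnip1. For Nfkb1 it was 0.05 to 0.24. The Tnfr2-/- TNF library was the one with the highest share of Progenitor.2 cells. With Progenitor.1 and Progenitor.2 weighted equally in place of the pooled sum, the Tnfr2-/- TNF difference was 0.65 for Tnfaip3, 0.26 for Nfkb2, 0.12 for Birc3 and -0.05 for Nfkbiz, and 0 members were at least 2-fold higher in both genotypes.

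In single cells the Nfkbia values of wildtype cells were higher with TNF over most of their range. Over Progenitor.1 cells of at least 10000 UMIs, the median cell was at 175, 491, 180 and 269 CPM of Nfkbia. The wildtype TNF cells had a 10th percentile of 189 CPM, above the wildtype untreated median. In Progenitor.2 the medians were 212, 664, 386 and 497 CPM. The wildtype untreated cells were again lowest.

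**Figure D3:**
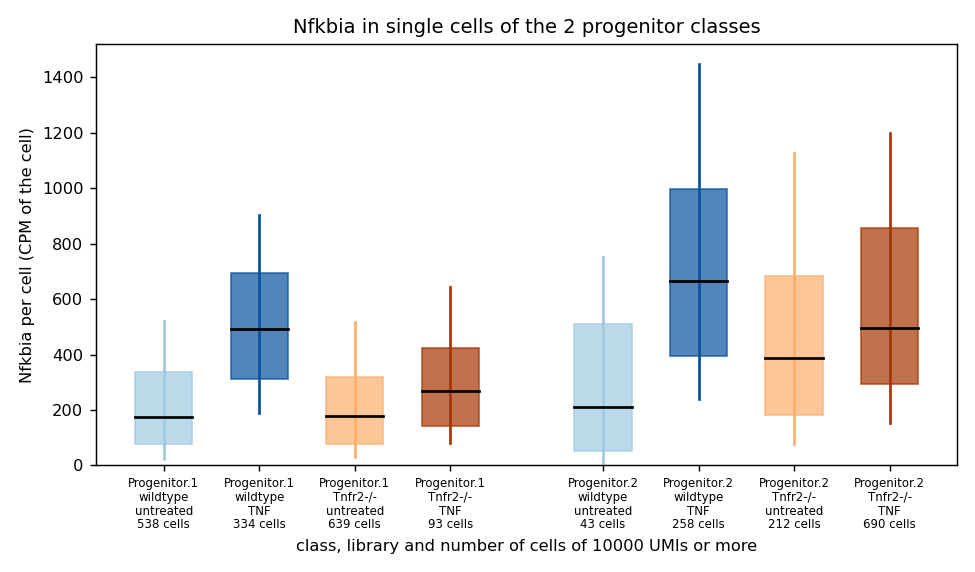
Nfkbia per cell, in CPM of that cell (y axis, from 0), for cells of 10000 UMIs or more in 2 progenitor classes and 4 libraries. The black line is the median, the box the 25th to 75th percentile and the line the 10th to 90th percentile over cells; the wildtype TNF median was the highest of the 4 libraries in each class.

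After each cell was thinned to 5000 UMIs, 55.7% (exact Clopper-Pearson interval 51.4 to 59.9), 88.1% (84.1 to 91.3), 58.2% (54.3 to 62.1) and 67.0% (56.6 to 76.4) of Progenitor.1 cells had a UMI of Nfkbia. Without thinning the shares were 92.1%, 99.7%, 93.8% and 94.7%. For Relb the thinned shares were 7.69%, 21.8%, 11.8% and 18.1% in Progenitor.1 and 30.4%, 34.8%, 18.7% and 14.5% in Progenitor.2. As a background, Col3a1, a collagen that epithelial cells should lack, was found in 0 to 3.11% of thinned Progenitor.1 cells and 0.141 to 3.57% of thinned Progenitor.2 cells. The median depth of Progenitor.1 cells was 42680 to 46629 UMIs. For Nfkbie, 0.461%, 0.458%, 0.202% and 0.355% of thinned epithelial cells had a UMI. For that collagen these shares were 2.58%, 0.916%, 0.202% and 0.118%. Nfkbie was thus below the collagen in wildtype, level with it in untreated Tnfr2-/- cells and above it in Tnfr2-/- TNF cells. Its shares rest on 5, 4, 2 and 3 cells and are not read as expression.

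Between genotypes, 8 of 10 members were higher in Tnfr2-/- than in wildtype epithelium without TNF and 7 of 10 with TNF, where the sign of Birc3 turned with TMM factors. Of the members tested these were 6 of 8 and 7 of 9, where 60.5% and 42.9% of genes were higher. The median of the 10 members was 0.45 without and 0.35 with TNF, against 0.11 and -0.10 over all genes. Without TNF the median of the 10 members was 0.55 within Progenitor.1 and 0.63 within Progenitor.2, against 0.05 and 0.05 over all genes. With TNF the members' medians were -0.05 and 0.01, against -0.04 and -0.04 over all genes. Nfkbie was under 20 CPM in both classes, and Birc3 was so in the untreated Progenitor.1 pair. The higher median of the sum was thus found within those classes without TNF but not with it, where the members' medians were near those of all genes. Without TNF 2 of 8 tested members were at least 2-fold higher, Nfkb2 and Nfkbiz (2.42% of genes), and with TNF 1 of 9, Nfkbiz (5.04% of genes). In the untreated pair Nfkb2 and Nfkbiz reached 20 CPM only in the Tnfr2-/- library, so they could pass only by being higher there. Nfkbiz was at least 2-fold higher in both treatments (1 of 8 members, 1.13% of genes), by 1.22 and 1.04, and within Progenitor.1 by 0.98 and 0.40 and within Progenitor.2 by 0.94 and 0.81. It was thus below 2-fold within both classes. The untreated Nfkb2 difference was 1.18 in the epithelium and 0.63 once the median of the genes on its chromosome was subtracted, 1.04 in Progenitor.1 and 0.64 in Progenitor.2.

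The alternative subunits were compared between genotypes as well. With TNF, the Relb difference was -0.75 in the epithelium, -0.60 in Progenitor.1 and -1.09 in Progenitor.2. Nfkb2 differed by 0.42, 0.29 and 0.04 in the same sums, and by 0.04 in the epithelium once its chromosome's median was subtracted. Without TNF both genes were higher in Tnfr2-/- Progenitor.1 cells, Relb by 0.52 and Nfkb2 by 1.04, and in Progenitor.2 Relb differed by -0.32 with overlapping intervals. The mean of the alternative subunits minus the classical ones was then taken for Tnfr2-/- minus wildtype. In the epithelial sum it was -0.73 (counting interval -0.82 to -0.64) with TNF and -0.22 (-0.33 to -0.11) without it. Within Progenitor.1 it was -0.31 (-0.53 to -0.09) with TNF and 0.17 (0.01 to 0.33) without it, so the untreated sign was reversed there. Within Progenitor.2 it was -0.94 (-1.07 to -0.81) with TNF and -0.57 (-0.96 to -0.19) without it. Birc3 differed by -0.75 in Progenitor.1 with TNF, while its pooled value of -0.13 turned to 0.02 with TMM factors.

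Rela and Nfkb2 lie on chromosome 19, and genes on that chromosome were higher as a whole in Tnfr2-/- epithelium. The median of the tested genes there was 0.55 without TNF (253 genes) and 0.38 with it (250 genes), which is 0.44 and 0.48 above the median of all genes. Rela differed between genotypes by 0.93 and 0.85 and Nfkb2 by 1.18 and 0.42. Within Progenitor.1 without TNF Rela differed by 0.65 and Nfkb2 by 1.04, against a chromosome median of 0.48. Within Progenitor.2 Rela differed by 0.85 and Nfkb2 by 0.64 without TNF, against 0.50, and by 0.59 and 0.04 with it, against 0.48. In Progenitor.1 with TNF, Rela at 0.26 and Nfkb2 at 0.29 lay below the chromosome's median of 0.50. In the mesenchyme the chromosome's median was 0.01 above that of all genes in both treatments. The part of this shift in the genotype values of Rela and Nfkb2 was not tested. For the TNF differences the chromosome's median minus the median over all tested genes came to -0.04 in wildtype epithelium and to -0.01 in the other genotype.

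**Figure D4:**
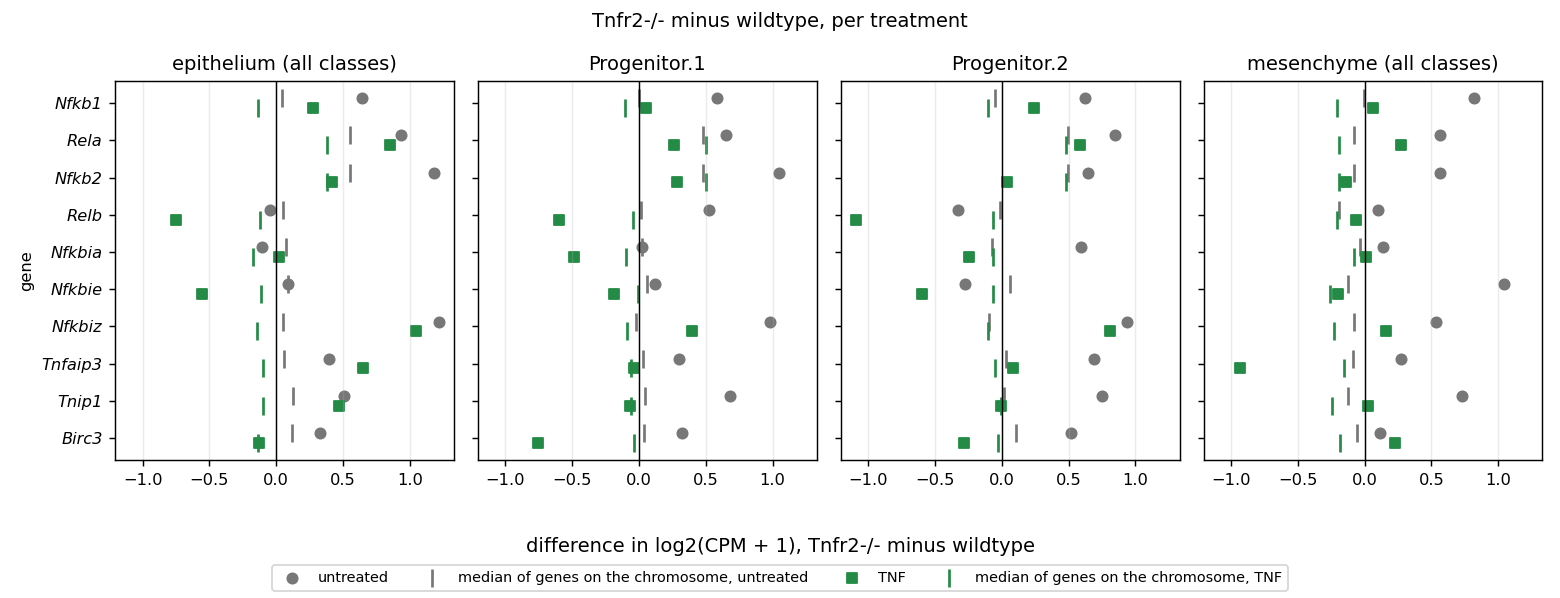
Difference in log2(CPM + 1) between Tnfr2-/- and wildtype libraries (x axis) for each member, untreated (grey circles) and with TNF (green squares), in 2 compartment sums and 2 progenitor classes. Upright ticks mark the median difference of the tested genes on the same chromosome, which for Rela and Nfkb2 in the epithelium is 0.55 untreated and 0.38 with TNF.

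In the mesenchyme, 4 of 10 members were at least 2-fold higher with TNF in wildtype, namely Nfkb1, Nfkb2, Nfkbie and Tnip1 (6.03% of genes, with Nfkbie at the minimum only with TNF), and 0 of 10 in Tnfr2-/- cells (5.71% of genes). No member was so in both genotypes (2.77% of genes). The difference was larger in wildtype for 9 of 10 members, where 60.0% of genes had the larger difference in wildtype. The wildtype TNF and Tnfr2-/- TNF mesenchyme were nearly all Mesenchyme-Ptges cells, while the untreated libraries held mostly other classes, so treatment and class could not be told apart there.

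Nfkb1 was at 75.5, 167, 134 and 175 CPM in the mesenchyme and Nfkb2 at 38.5, 96.7, 57.4 and 87.6 CPM. For both genes the wildtype untreated library was lowest and the TNF libraries highest. Tnfaip3 was at 86.4, 173, 105 and 90.1 CPM, so that the wildtype TNF library stood alone above the other 3. Its TNF difference was 0.99 in wildtype and -0.21 in Tnfr2-/- cells. Relb was at 60.7, 64.2, 65.2 and 61.2 CPM, with all 4 intervals overlapping. Nfkbia was at 475, 746, 524 and 750 CPM and Tnip1 at 32.1, 80.0, 53.7 and 81.5 CPM, and the TNF libraries of the genotypes overlapped for both.

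Rela was at 37.0, 65.7, 55.1 and 79.4 CPM, Nfkbiz at 68.0, 85.9, 98.8 and 96.4 CPM, Nfkbie at 13.5, 34.7, 28.9 and 30.2 CPM and Birc3 at 44.9, 60.0, 48.7 and 70.4 CPM. The wildtype untreated library was the lowest of the 4 for each of these genes. Within Mesenchyme-Ptges alone the Tnfr2-/- TNF differences were 0.14 to 0.54 over the 10 members. The wildtype pair of that class rests on 34 untreated cells with a median of 5755 UMIs, in which Nfkbie had 2 UMIs and Tnip1 had 6.

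Set against the epithelium of the same library, 9 of 10 members were higher in the mesenchyme in 4 of 4 libraries, where 36.9% of genes were, and Tnfaip3 in 3. Of these 9, Nfkbie reached 20 CPM in the mesenchyme alone, so it could enter the count only by being higher there. For Relb the smallest difference was 0.03, in the wildtype TNF library. With 4 pairs of sums no two-sided exact permutation test can go below 0.125. Nfkb1 was 3.67 to 5.00 times as high in the mesenchyme. No ratio is given for Nfkbie, since its epithelial counts are not read as expression. The smallest top ratios were those of Rela, at 1.07 to 1.62 times, and Tnip1, at 1.19 to 1.72 times.

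Over 27 sums of 1 class in 1 library with at least 20 cells, the highest Nfkbia level was 750 CPM in Tnfr2-/- TNF Mesenchyme-Ptges cells and the lowest 102 CPM in Tnfr2-/- untreated Progenitor.3 cells. The highest sum was a Mesenchyme-Ptges one for 7 of the members, namely Nfkb1, Nfkb2, Nfkbia, Nfkbie, Tnfaip3, Tnip1 and Birc3. The highest sums of Rela (81.1 CPM, Tnfr2-/- untreated) and Relb (79.6 CPM, wildtype TNF) were Progenitor.2 ones, and that of Nfkbiz (105 CPM) was Tnfr2-/- untreated Mesenchyme-generic. The lowest sum was a Progenitor.3 one for 8 of 10 members, and in that class the median cell held 6364 to 9570 UMIs. Tnfaip3 was at 0 of 530565 UMIs in Tnfr2-/- untreated Progenitor.3 cells, which allows up to 5.65 CPM.

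**Figure D5:**
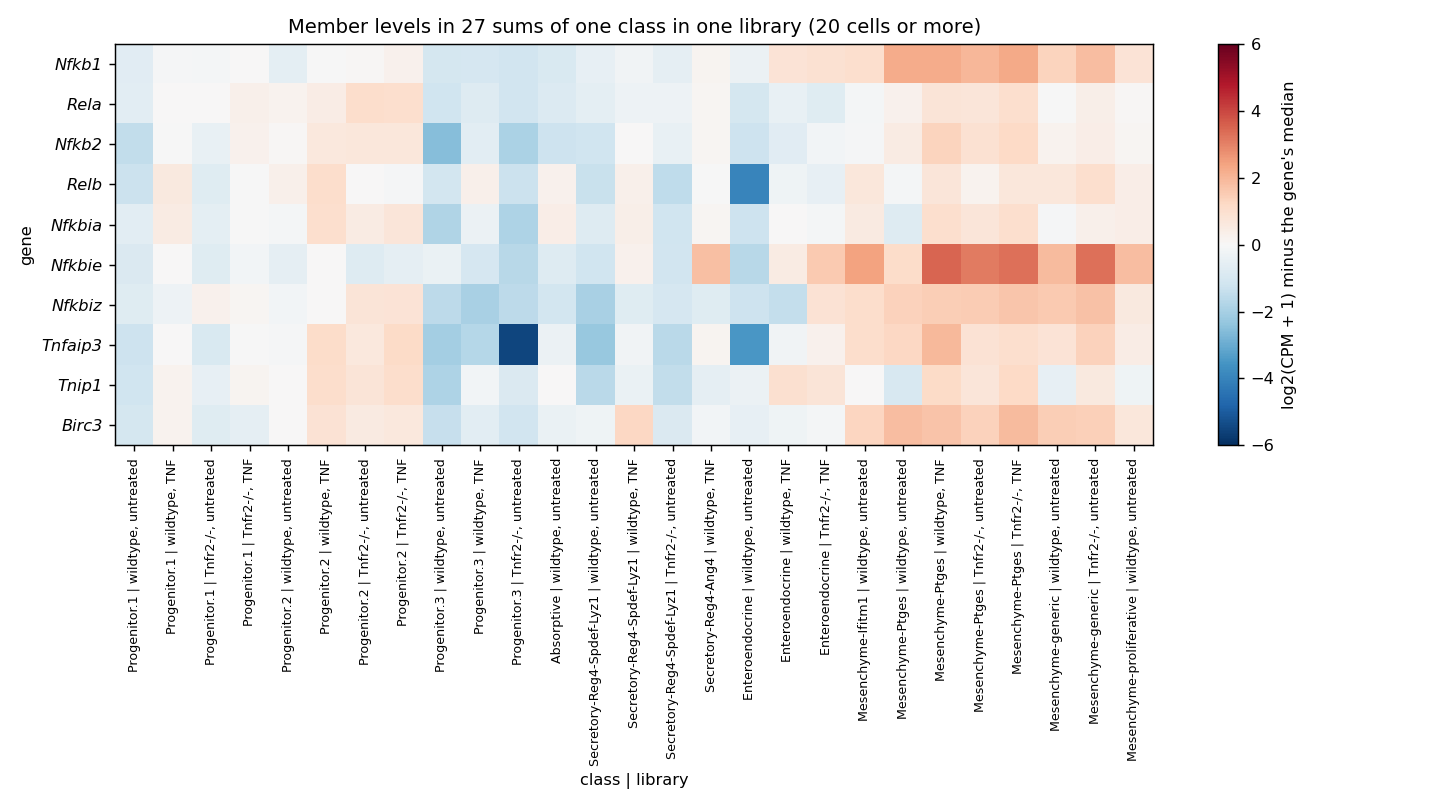
Levels of the 10 members (rows) in 27 sums of 1 class in 1 library (columns), as log2(CPM + 1) minus the gene's median over the sums (colour). Nfkb1, Nfkbie and Birc3 are high in the mesenchymal columns on the right, and all 10 members lie below their median in the untreated Progenitor.3 columns.

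In Secretory-Reg4-Spdef-Lyz1 cells all 8 members that reached 20 CPM were higher with TNF in wildtype, where 49.9% of genes were higher. Of these, Nfkb2, Relb, Tnfaip3, Tnip1 and Birc3 reached 20 CPM only with TNF, so they could pass only by being higher there. The median over all 10 members, with Nfkbie and Nfkbiz below the minimum, was 1.24. Over all 5551 genes tested it was -0.000490. Tnfaip3 there was at 8.45 CPM untreated and 38.9 CPM with TNF, and Relb at 14.8 and 48.0 CPM. Nfkbia was at 156 and 368 CPM in wildtype enteroendocrine cells and at 338 CPM in Tnfr2-/- TNF enteroendocrine cells. The wildtype pair of that class had 33 and 31 cells. The Tnfr2-/- TNF library had 8 secretory and 1 absorptive cell, too few for a value.

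The other signalling genes of both arms differed less with TNF than the members did at the median. Of 15 genes of the classical arm and 10 of the alternative arm, 7 and 4 were tested in the epithelium, and 0 of either were at least 2-fold different with TNF in both genotypes. Their medians were 0.13 and 0.18 (classical) and 0.16 and 0.18 (alternative) in wildtype and Tnfr2-/- cells, against 0.04 and -0.14 over all 5545 genes tested. Ikbkb was at 20.0, 27.1, 27.8 and 31.7 CPM and Chuk at 28.2, 31.1, 38.8 and 35.3 CPM. Map3k14 was at 1.85, 4.11, 2.37 and 1.91 CPM, with the wildtype TNF library highest, and Traf3 at 10.3, 19.01, 17.7 and 21.0 CPM. Tnfrsf1a, which codes for TNF receptor 1, was at 30.9, 30.1, 33.9 and 31.4 CPM, nearly level over the 4 libraries.

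Of 4 other Rel and IkB genes, Rel was at 18.95, 27.5, 18.8 and 23.1 CPM, Nfkbib at 31.5, 40.1, 32.6 and 36.5 CPM and Bcl3 at 14.4, 27.5, 21.7 and 28.5 CPM in the epithelium. None of the 3 that were tested differed 2-fold in both genotypes. Of 13 other negative regulators 10 were tested, and 0 were at least 2-fold different with TNF in both genotypes. Over all tested genes 0.920% were at least 2-fold higher in both. Cyld was at 24.5, 31.3, 27.5 and 38.5 CPM. Tnip3 was at 108, 258, 153 and 237 CPM, at least 2-fold higher with TNF in wildtype but not in Tnfr2-/- cells. Of 28 NF-kB target genes 12 were tested, with a median of 0.86 in wildtype and 0.80 in Tnfr2-/- cells. Nos2, which codes for inducible nitric oxide synthase, was at least 2-fold higher in both, at 1.63, 139, 34.0 and 260 CPM. The chemokine gene Cxcl10 was at least 2-fold lower in both, at 42.6, 20.4, 55.2 and 7.82 CPM.

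In the mesenchyme 5 of 17 tested target genes were at least 2-fold higher with TNF in both genotypes, where 2.77% of genes were. They were Cxcl1, Cxcl2, Csf1, Ptgs2 and Ier3, and Tnip3 was so among the 11 tested negative regulators. Cxcl2, which codes for a neutrophil chemokine, was at 40.2, 672, 256 and 1024 CPM, and Tnip3 at 4.80, 60.1, 9.65 and 50.7 CPM. Tnfrsf1a was at least 2-fold lower with TNF in both, at 167, 82.3, 135 and 64.3 CPM. These genes differed 2-fold in both genotypes where 0 of the 10 members did. Treatment and class could not be told apart in these mesenchymal sums.

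Over the 27 sums, the gene whose log2(CPM + 1) was most like that of Rela among 6170 genes was Nfkb2 (Pearson r = 0.91), and the reverse held for Nfkb2. Both lie on chromosome 19, whose genes were higher as a whole in Tnfr2-/- epithelium, and the part of this in the correlation was not tested. No other member had a member among its 3 nearest genes. The nearest gene was Plod3 for Nfkb1 (r = 0.94), Cxcl16 for Relb (0.80), Dusp1 for Nfkbia (0.85), H2-Q7 for Nfkbie (0.95), Cdh13 for Nfkbiz (0.93), Pls3 for Tnfaip3 (0.89), Btg1 for Tnip1 (0.85) and C3 for Birc3 (0.91). These correlations are descriptions over sums that share libraries and compartments. Relb and Nfkb2, the alternative partners, had r = 0.64, and Rela and Nfkb1, the classical partners, had r = 0.63.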

How the data were processed

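Per the labels and methods, the authors made 3' libraries on the 10x platform, and counted UMIs with Cell Ranger 5.0.0 and mm10 per the submitters' processing notes. They removed cells under 100 UMIs and doublets of epithelial and mesenchymal cells, and clustered and named the classes in monocle3. The deposited counts are whole UMI counts per gene and cell. A size factor was also deposited for each cell but not used. The matrix held 6155 cells, with 44547639 to 87228093 UMIs per library, and 35 cells had no class. Of the cell barcodes 3 occur in more than 1 library, and no doublet caller was run.

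UMIs were summed per class or compartment and library. No test between groups was made, since each group had 1 library, and cells were not treated as replicates. A gene was compared where at least 1 of the paired libraries had 20 CPM, classes with under 20 cells entered no difference, and a 0 was bounded by 3 counts. Counting intervals of differences used the normal approximation on summed counts. With TMM factors the median gene of the Tnfr2-/- epithelial TNF pair moved from -0.12 to 0.05, and that of the genotype pair with TNF from -0.10 to 0.08. The members, pathway lists, thresholds and rules were chosen with earlier results of these data known. All members were named, with other pathway genes only where they were at least 2-fold different with TNF in both genotypes or were named regulators, and the nearest genes by correlation. Positions came from GENCODE M21 (GRCm38), which matched 30317 identifiers and missed 43, with genes overlapping Nfkb1, Nfkb2 and Tnip1, whose counts could be shared. Promoters came from RefSeq. Scripts were tested on simulated data and used Python 3.11.15, numpy 2.4.6, scipy 1.17.1, pandas 2.3.3 and edgeR 4.0.16 (TMM factors only). Alternatives were other pseudocounts, scalings, minimums, cell weights, UMI limits, classes and a chromosome correction.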

Additional observations from a re-analysis of the deposited data

Results flagged for a closer look

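In 9 cases the TNF difference had opposite signs in the 2 genotypes. With 1 library per group these contrasts were not tested, and several single values lie near 0. In the mesenchyme the Tnfr2-/- difference minus the wildtype difference was -1.21 for Tnfaip3 (0.99 in wildtype, -0.21 in Tnfr2-/-, counting interval of the contrast -1.45 to -0.97). In Mesenchyme-Ptges, which was 41.1% of the untreated and 100% of the TNF mesenchyme of Tnfr2-/- cultures, its TNF difference was 0.68 in wildtype and 0.14 in Tnfr2-/- cells, so the opposite sign was not found within that class. In the mesenchyme the contrast was -0.37 for Nfkbiz and -0.17 for Relb. The Tnfr2-/- values of Nfkbiz and Relb there turned positive with TMM factors, to 0.11 and 0.05. In Progenitor.1 it was -0.58 for Nfkbiz (0.42 in wildtype, -0.16 in Tnfr2-/-).

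In Progenitor.2 it was -0.77 for Relb (0.71 and -0.05, counting interval -1.13 to -0.40), -0.61 for Nfkb2 (0.60 and -0.01, -0.99 to -0.22) and -0.26 for Rela (0.23 and -0.03, -0.62 to 0.11). The median of all genes tested in that Tnfr2-/- pair was -0.10, below these 3 members. In Mesenchyme-Ptges it was 0.31 for Nfkb1 and 0.70 for Birc3, and both counting intervals held 0.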

How the results depend on the processing

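No paired analysis was possible because each group had 1 library, and for the same reason no library could be left out. Members at least 2-fold higher with TNF in both genotypes numbered 2 in the epithelium, 1 with a pseudocount of 10 CPM, 1 with the mean over cells and 0 with Progenitor.1 and Progenitor.2 weighted equally. TMM factors and median-of-ratios size factors gave 3. The count was 0 in the mesenchyme under all alternatives run. The genotype count was 1, and 0 with a pseudocount of 10 CPM or equal weights. The alternative minus classical TNF difference in wildtype epithelium was 0.67, and 0.53 with a pseudocount of 10 CPM, 0.54 with the mean over cells and 0.48 with equal weights. That in Tnfr2-/- epithelium moved by less than its counting interval under all alternatives run. The cause of these moves was not tested, apart from the pseudocount, which shrinks differences of low genes. Of 20 TNF differences of single members 1 changed sign, Nfkbiz in Tnfr2-/- epithelium, to -0.05 with equal weights, and of 20 genotype differences 5 did, in Nfkbia (both treatments), Nfkbie, Tnip1 and Birc3, and none of them was 2-fold. Limiting cells to at most 100000 UMIs was added after the data were seen and left the 3 counts at 2, 0 and 1. Counting intervals do not cover the spread between cultures or mice.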
